A study of Mus musculus with 10 samples.

Results

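The genes of ethanol, aldehyde and acetate metabolism were read in the nucleus accumbens (NAc), a ventral striatal region involved in reward, of mice of the strains C57BL/6J (B6) and DBA/2J (D2). The set was chosen by name and holds 10 genes: the alcohol dehydrogenases Adh1 and Adh5, the catalase gene Cat, the cytochrome P450 gene Cyp2e1, the aldehyde dehydrogenases Aldh2, Aldh1a1, Aldh3a2 and Aldh9a1, and the acetyl-CoA synthetases Acss1 and Acss2. All 10 were among the 29883 genes of the count table. B6 and D2 are inbred strains with no transgene or introduced allele, and B6 mice are known to drink ethanol readily whereas D2 mice avoid it. The mice were young adult males that had never received ethanol or any other treatment, 5 per strain, with the NAc of each mouse sequenced as a separate poly-A library. Levels therefore describe the resting state, not a response to ethanol. They are RNA levels of the genes throughout, also where an enzyme is named. Protein amount and enzyme activity were not measured. Reads of both strains were aligned to GRCm39, a genome built from C57BL/6J, and the effect of this on D2 counts was not tested.

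Ethanol is cleared in 3 steps. Alcohol dehydrogenases, catalase in peroxisomes and CYP2E1 in the endoplasmic reticulum oxidise it to acetaldehyde, aldehyde dehydrogenases, above all mitochondrial ALDH2, oxidise acetaldehyde to acetate, and acetyl-CoA synthetases join acetate to coenzyme A. In liver the class I alcohol dehydrogenase encoded by Adh1 does most of the first step, whereas in brain that enzyme is scarce and catalase and CYP2E1 are regarded as the main routes. The aldehyde dehydrogenases also handle aldehydes that cells make themselves, such as retinal, long-chain fatty aldehydes and the aldehydes left by dopamine and polyamine breakdown.

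The libraries held 96977262 to 116776714 counted reads each. Levels are given in CPM, the reads of a gene relative to the size of the library after scaling between libraries by the trimmed mean of M-values (TMM). Striatal projection neuron markers (Drd1, Drd2, Ppp1r1b and 5 others) were abundant in every library, with summed levels of 3615 to 4785 CPM in B6 and 3058 to 3727 CPM in D2. Markers of cortical neurons (5 genes, among them Slc17a7 and Tbr1) were uneven: their sum was 76.8, 70.3, 885, 151 and 900 CPM in B6 replicates 1 to 5 and 203, 510, 556, 442 and 292 CPM in D2 replicates 1 to 5. B6 replicates 3 and 5 thus stood apart from the other B6 mice. Their counts were also closest to each other, with a mean chi-square per gene of 4.89 over 15388 genes. For the other pairs of mice within a strain it was 17.5 to 119. Whether these 2 libraries are as independent as the others was not tested. Where the call or direction of an enzyme, or of a related gene that passed, turned on them, values are given with and without them.

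D2 mice exhibited lower levels of 3 of the 10 enzymes, Adh1, Cat and Aldh2, and none passed the test with a higher level in D2. Adh1 was 3.35-fold higher in B6 (95% interval 2.24 to 5.01, n = 5 per strain) but scarce in both strains, while Cat was at 87.1% and Aldh2 at 92.2% of their B6 levels in D2. In all 3 genes every D2 mouse lay below every B6 mouse. The strains were compared with edgeR's quasi-likelihood F test, two-sided, with p values adjusted by the Benjamini-Hochberg method across the 29883 genes and a threshold of 0.05. Over all genes 18.3% passed this test, 9.83% with lower and 8.50% with higher levels in D2, and among the 15388 genes whose mean count reached 100, 23.8% passed and 13.2% were lower. In 8.63% of all genes every D2 value lay below every B6 value, and in 16.0% the strains did not overlap in either direction. The median log2 fold change was -0.07 over the 10 enzymes and 0.0036 over all genes. At an unadjusted p under 0.05, 4 enzymes were lower and 0 higher in D2, beside 15.2% and 14.2% of all genes. DESeq2 called 3 enzymes lower and 0 higher, beside 10.9% and 9.85% of all genes. In bulk tissue, fewer cells that express a gene and less RNA per cell cannot be told apart.

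**Figure D1:**
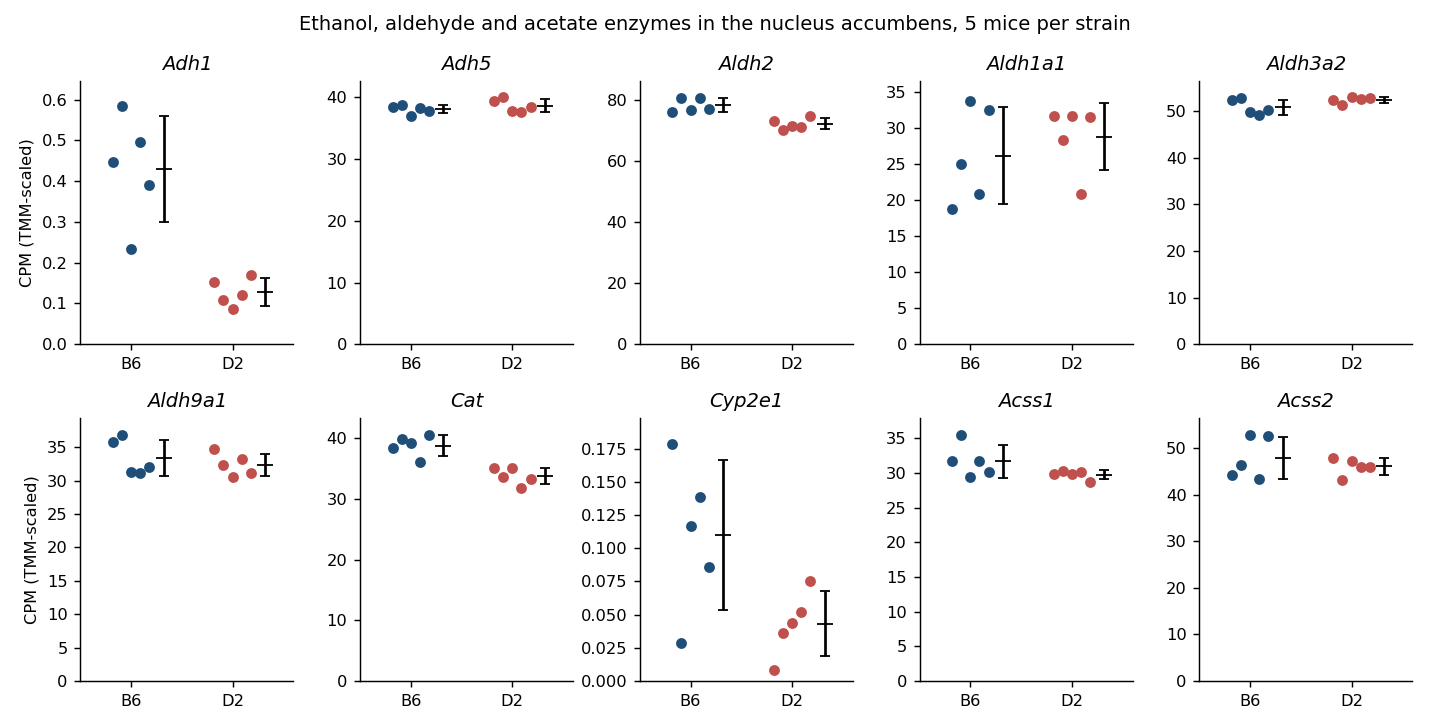
Level of each of the 10 enzymes in every mouse, in TMM-scaled CPM on axes that start at 0, with B6 in blue and D2 in red; points are mice and bars are the mean ± SD (n = 5 per strain). The D2 points lie below all B6 points in the panels of Adh1, Cat and Aldh2 and overlap with them in the other panels.

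Adh1 (ENSMUSG00000074207, chr3:137966752-137996462 on the plus strand of GRCm39) encodes the class I alcohol dehydrogenase. Its raw counts were 50, 61, 22, 50 and 41 reads in B6 replicates 1 to 5 and 18, 12, 10, 14 and 18 reads in D2 replicates 1 to 5. The lowest B6 mouse, replicate 3, still held more reads than the highest D2 mice. Scaled for depth, the levels were 0.447, 0.584, 0.233, 0.495 and 0.391 CPM in B6 and 0.153, 0.109, 0.0875, 0.122 and 0.170 CPM in D2. Mean levels were 0.430 ± 0.131 CPM in B6 and 0.128 ± 0.0333 CPM in D2 (SD, n = 5), a log2 fold change of -1.74 (SE 0.27, adjusted p = 4.6e-04). Among the 5478 genes that passed the test, the size of this change ranked 1210. The coefficient of variation within a strain was 30.4% in B6 and 26.0% in D2.

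Adh5 (ENSMUSG00000028138, chr3:138148828-138161260, plus strand), the neighbour of Adh1 on the same chromosome, encodes the class III alcohol dehydrogenase, which oxidises glutathione-bound formaldehyde and reduces S-nitrosoglutathione and acts poorly on ethanol. It was the steadiest gene of the set in B6 and the strains overlapped: 38.5, 38.7, 37.0, 38.3 and 37.9 CPM in B6 and 39.4, 40.1, 37.9, 37.7 and 38.4 CPM in D2. The coefficient of variation was 1.74% in B6 and 2.64% in D2. Its log2 fold change was 0.02 (SE 0.031, adjusted p = 0.70), with a 95% interval of -0.04 to 0.09. With TMM scaling this interval ran from 96.9% to 106% of the B6 level. It leaves out the uncertainty of the scaling, and total counts gave 0.054 (SE 0.036, adjusted p = 0.37). The ratio of Adh1 to Adh5 counts within a mouse, which does not depend on the scaling of the library, was 0.0116, 0.0151, 0.00630, 0.0129 and 0.0103 in B6 and 0.00389, 0.00271, 0.00231, 0.00323 and 0.00442 in D2. The ratios did not overlap. On the log2 scale this ratio was 1.75 lower in D2, a difference of -1.75 (two-sided exact permutation test over all assignments of 5 and 5 mice, p = 0.0079, the smallest the design allows, and 0.0238 after adjustment over the 3 ratios tested).

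Cat (ENSMUSG00000027187, chr2:103284194-103316185, minus strand) encodes catalase, which breaks down hydrogen peroxide and in its presence oxidises ethanol. Its level was 38.3, 39.8, 39.1, 36.0 and 40.5 CPM in B6 and 35.0, 33.7, 35.0, 31.9 and 33.2 CPM in D2. All D2 mice fell under the lowest B6 mouse, replicate 4. Mean levels were 38.8 ± 1.72 CPM in B6 and 33.8 ± 1.33 CPM in D2 (SD, n = 5), a log2 fold change of -0.20 (SE 0.041, adjusted p = 0.0040). Between 3518 and 4289 reads stood behind each value. The change was small, since only 16.4% of the genes that passed changed by less.

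Cyp2e1 (ENSMUSG00000025479, chr7:140343652-140355167, plus strand), the ethanol-inducible cytochrome P450, was close to the limit of detection. Its raw counts were 20, 3, 11, 14 and 9 reads in B6 and 1, 4, 5, 6 and 8 reads in D2, and the strains overlapped through B6 replicate 2. Mean levels were 0.110 ± 0.0565 CPM in B6 and 0.0432 ± 0.0244 CPM in D2 (SD, n = 5). The log2 fold change of -1.34 (SE 0.51) had a 95% interval of -2.44 to -0.23 and an adjusted p of 0.094, which did not pass. Without B6 replicate 2 it was -1.58 with an adjusted p of 0.030. At this depth the Cyp2e1 call turned on a single mouse.

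The sequences before the canonical transcript start of the 3 genes that were lower in D2 are shown because they let the reader compare a scarce enzyme gene and abundant ones. Each is the 250 bases before the start of the canonical transcript, 5′ to 3′ on the strand of the gene, from the GRCm39 reference, which is the B6 sequence. For Adh1 and Cat this window lies inside the annotated gene, since other annotated transcripts start farther upstream. D2 sequence was not analysed here. Capitals mark matches on either strand to the TATA box TATAAA, the CCAAT box CCAAT and the GC box GGGCGG.
Adh1, chr3:137983001-137983250, plus strand: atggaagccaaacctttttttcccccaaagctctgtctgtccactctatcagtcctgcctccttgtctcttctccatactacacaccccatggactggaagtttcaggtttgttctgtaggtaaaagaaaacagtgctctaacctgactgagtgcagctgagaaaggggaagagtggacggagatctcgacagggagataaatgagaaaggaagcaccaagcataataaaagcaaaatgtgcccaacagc
Cat, chr2:103315506-103315755, minus strand: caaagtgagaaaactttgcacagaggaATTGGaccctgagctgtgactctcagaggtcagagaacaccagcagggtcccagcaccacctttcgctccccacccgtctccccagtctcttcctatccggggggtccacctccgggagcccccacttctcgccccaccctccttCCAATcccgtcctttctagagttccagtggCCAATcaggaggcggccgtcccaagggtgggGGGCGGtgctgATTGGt
Aldh2, chr5:121732090-121732339, minus strand: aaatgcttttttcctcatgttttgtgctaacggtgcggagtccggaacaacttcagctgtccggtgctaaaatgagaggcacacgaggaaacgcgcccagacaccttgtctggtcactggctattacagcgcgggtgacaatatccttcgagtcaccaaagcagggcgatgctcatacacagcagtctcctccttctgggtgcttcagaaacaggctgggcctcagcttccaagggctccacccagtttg
The Cat sequence held 4 matches to CCAAT and 1 match to GGGCGG, and the last of each lay close to the transcript start. The Adh1 and Aldh2 sequences held no match to any of the 3 motifs. Of 17331 promoters of protein-coding genes cut in the same way, 8.62% held TATAAA, 35.4% held CCAAT and 43.8% held GGGCGG. Guanine and cytosine made up 46.4% of the bases in Adh1, 53.6% in Aldh2 and 61.2% in Cat. A match describes letters in this window and does not show that a factor binds there.

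Aldh2 (ENSMUSG00000029455, chr5:121704090-121732089, minus strand) encodes the mitochondrial enzyme that removes most acetaldehyde. Its level was 76.0, 80.9, 76.8, 80.7 and 77.3 CPM in B6 and 73.1, 70.3, 71.7, 71.2 and 74.8 CPM in D2. The groups did not overlap, but the lowest B6 mouse and the highest D2 mouse were close. Mean levels were 78.3 ± 2.31 CPM in B6 and 72.2 ± 1.78 CPM in D2 (SD, n = 5), a log2 fold change of -0.12 (SE 0.032, adjusted p = 0.021). The change was smaller still than that of Cat, and only 2.34% of the genes that passed changed by less. The call was lost, at adjusted p values from 0.052 to 0.054, when B6 replicate 2, B6 replicate 4, D2 replicate 2 or D2 replicate 4 was left out, and libraries scaled by their total counts gave -0.09 with an adjusted p of 0.12.

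Aldh1a1 (ENSMUSG00000053279, chr19:20469539-20622825, plus strand) encodes a cytosolic enzyme that makes retinoic acid from retinal and in midbrain dopamine neurons oxidises the aldehyde of dopamine. It was the most variable of the abundant enzymes, at 18.8, 25.0, 33.7, 20.9 and 32.6 CPM in B6 and 31.7, 28.3, 31.8, 20.9 and 31.6 CPM in D2. The highest B6 values were those of replicates 3 and 5, which also had the highest cortical markers, and 4 of the 5 D2 mice lay above the other B6 mice. Mean levels were 26.2 ± 6.73 CPM in B6 and 28.8 ± 4.68 CPM in D2 (SD, n = 5), with a log2 fold change of 0.14 (SE 0.16, adjusted p = 0.65) and a 95% interval of -0.22 to 0.50. Without B6 replicates 3 and 5, a choice made after the data were seen, the log2 fold change was 0.42 (SE 0.13, adjusted p = 0.040). With the cortical marker level of each mouse as a covariate it was 0.07 (SE 0.12, adjusted p = 0.74). The part of tissue makeup in this value was not tested further. Dopamine neuron markers, whose RNA in the NAc is low, summed to 10.3 to 12.7 CPM in B6 and lay between 9.17 and 10.997 CPM in D2.

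The ratio of Aldh1a1 to Aldh2 counts within a mouse was 0.248, 0.309, 0.440, 0.259 and 0.422 in B6 and 0.434, 0.402, 0.443, 0.294 and 0.422 in D2. On the log2 scale it differed by 0.28 between the strains, within the scatter of the mice (exact permutation test, two-sided, p = 0.238, adjusted 0.357). Without B6 replicates 3 and 5 the difference was 0.54 (exact p = 0.036).

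**Figure D2:**
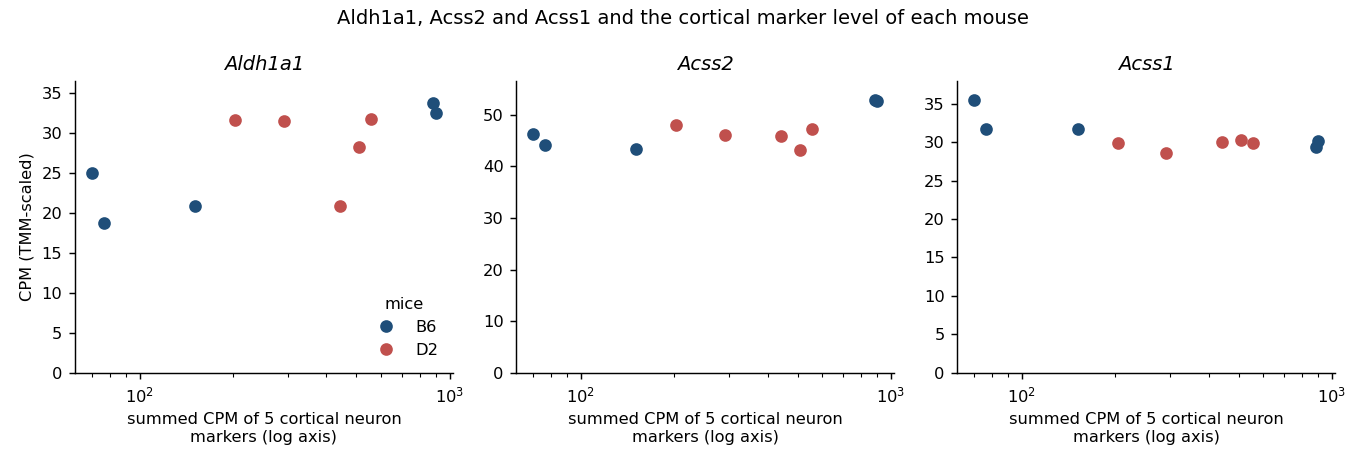
Level of Aldh1a1, Acss2 and Acss1 in each mouse (TMM-scaled CPM, axis from 0) against the summed CPM of 5 cortical neuron markers on a log axis, with B6 in blue and D2 in red. The B6 mice with cortical sums of 885 and 900 CPM, replicates 3 and 5, have the highest Aldh1a1 and Acss2 of the 10 mice, and the D2 mice lie between 203 and 556 CPM on the marker axis.

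Aldh3a2 (ENSMUSG00000010025, chr11:61114243-61158841, minus strand), the fatty aldehyde dehydrogenase of the endoplasmic reticulum, ranged from 49.3 to 52.8 CPM in B6 and from 51.3 to 53.0 CPM in D2. Its log2 fold change was 0.04 (SE 0.031, adjusted p = 0.41) with an interval of -0.02 to 0.11. Aldh9a1 (ENSMUSG00000026687, chr1:167177536-167196101, plus strand), which oxidises aminoaldehydes on the routes to carnitine and, from putrescine, to GABA, ranged from 31.1 to 36.9 CPM in B6 and from 30.5 to 34.7 CPM in D2. Its log2 fold change was -0.04 (SE 0.057, adjusted p = 0.68) with an interval of -0.17 to 0.08. The values of the strains overlapped in both genes, and the intervals ran from 98.4% to 107.9% of the B6 level for Aldh3a2 and from 89.0% to 106% for Aldh9a1. Without B6 replicates 3 and 5 the log2 fold change of Aldh9a1 was -0.096 (SE 0.060, adjusted p = 0.33).

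Acss1 (ENSMUSG00000027452, chr2:150460020-150510420, minus strand) encodes the mitochondrial acetyl-CoA synthetase, which feeds acetate into energy metabolism. Its level was 31.7, 35.5, 29.4, 31.8 and 30.1 CPM in B6 and 29.9, 30.3, 29.9, 30.1 and 28.6 CPM in D2. D2 mice were tightly grouped, with a coefficient of variation of 2.15% against 7.42% in B6, and lay within or just below the B6 range. The log2 fold change was -0.09 (SE 0.049, adjusted p = 0.24), with an interval of -0.20 to 0.01. Here B6 replicates 3 and 5 were the lowest of their strain, and without them the value was -0.15 (SE 0.046, adjusted p = 0.037). Without B6 replicate 2, the highest, it was -0.047 (SE 0.039, adjusted p = 0.49).

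Acss2 (ENSMUSG00000027605, chr2:155355679-155428016, plus strand) encodes the synthetase of cytosol and nucleus, which supplies acetyl-CoA for lipid synthesis and histone acetylation. Its level was 44.2, 46.4, 52.9, 43.3 and 52.7 CPM in B6 and 48.0, 43.3, 47.3, 45.9 and 46.1 CPM in D2. Replicates 3 and 5 were the highest of the B6 mice, and the remaining B6 mice lay within the D2 range. The log2 fold change of -0.05 (SE 0.059, adjusted p = 0.61) had an interval of -0.18 to 0.07, and without those replicates it took the other sign, at 0.045 (SE 0.042, adjusted p = 0.54). The ratio of Acss1 to Acss2 counts was 0.716, 0.765, 0.556, 0.733 and 0.572 in B6 and 0.622, 0.700, 0.631, 0.655 and 0.622 in D2. The D2 ratios lay inside the B6 range and differed by -0.04 on the log2 scale (two-sided exact permutation test, p = 0.706). Without B6 replicates 3 and 5 the difference was -0.19 (exact p = 0.018).

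With B6 replicates 3 and 5 left out, Adh1, Cat and Aldh2 kept their calls, at log2 fold changes of -1.98, -0.17 and -0.13 and adjusted p values of 8.4e-05, 0.018 and 0.021. The enzymes that passed were then 4 lower and 1 higher in D2, the added genes being Acss1 and Aldh1a1, beside 9.54% lower and 9.68% higher over all genes in the same fit.

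**Figure D3:**
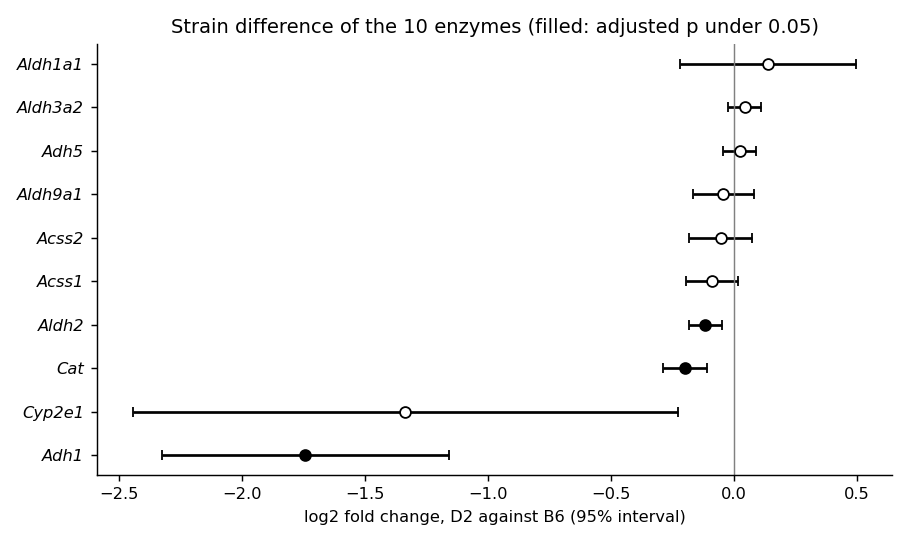
Log2 fold change of the 10 enzymes, D2 against B6, with 95% intervals from the edgeR fit (5 mice per strain); filled points passed an adjusted p of 0.05. Adh1, Cat and Aldh2 are filled and lie left of 0, Cyp2e1 has the widest interval (-2.44 to -0.23), and the other intervals span 0.

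Levels can be compared between the enzymes only per transcript length. Per kilobase of the canonical transcript and over all 10 mice, Adh5 was highest at 23.9 ± 0.542 CPM per kb, followed by Aldh2 at 18.5 ± 0.923, Aldh3a2 at 16.7 ± 0.462, Acss2 at 15.6 ± 1.14, Cat at 13.9 ± 1.15 and Aldh9a1 at 11.5 ± 0.765 CPM per kb (SD, n = 10). Acss1 at 8.26 ± 0.516 and Aldh1a1 at 4.44 ± 0.910 CPM per kb came next. Adh1 at 0.187 ± 0.122 and Cyp2e1 at 0.0363 ± 0.0256 CPM per kb lay far below. The ranges over the 10 mice overlapped between Aldh3a2 and Acss2, Acss2 and Cat, Cat and Aldh9a1, and Adh1 and Cyp2e1. Within a mouse, Aldh3a2 was above Acss2 in 8 of 10 mice, and each of the other neighbours kept its order in 10 of 10. With the summed length of all annotated exons as the divisor, Aldh2 was first, Cat second and Adh5 in place 5, while Adh1 and Cyp2e1 stayed in places 9 and 10. In both scalings the RNA level of Cat stood far above those of Adh1 and Cyp2e1, the genes of the other ethanol-oxidising enzymes apart from Adh5.

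**Figure D4:**
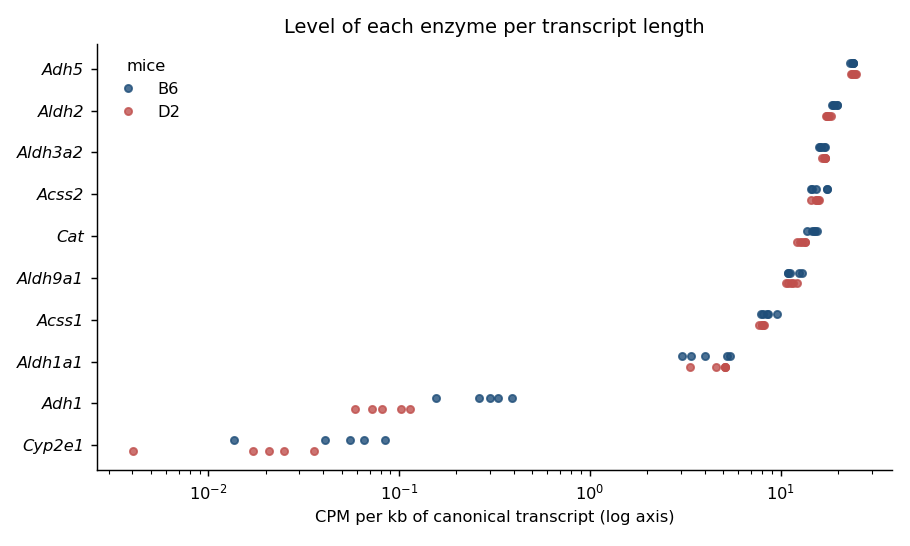
Level of each enzyme per kilobase of canonical transcript on a log axis (CPM per kb), 1 point per mouse, B6 in blue and D2 in red, ordered by the mean of all 10 mice. The upper 8 enzymes lie between about 3 and 25 CPM per kb, and Adh1 and Cyp2e1 below 0.4 CPM per kb.

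The genes around the 3 enzymes that were lower in D2 were counted next. Within 1 Mb of Adh1, 9 of 31 genes passed the test (29.0%, 4 higher and 5 lower in D2), within 1 Mb of Cat 6 of 27 (22.2%, 3 in each direction) and within 1 Mb of Aldh2 7 of 80 (8.75%, 1 higher and 6 lower), beside 18.3% over all genes. The nearest tested genes of Adh1 were the alcohol dehydrogenase genes Adh7, 26813 bases away, and Adh5, 152365 bases away. Adh7, the class IV enzyme that also acts on retinol, was at a log2 fold change of 0.15 (SE 0.48, adjusted p = 0.88) at 0.0445 CPM in B6. Neither neighbour of Cat passed, with Elf5 at -0.51 (SE 0.24, adjusted p = 0.17) and Abtb2 at -0.15 (SE 0.068, adjusted p = 0.16), and neither did those of Aldh2, with Mapkapk5 at 0.02 (SE 0.10, adjusted p = 0.94) and Acad12 at 0.10 (SE 0.072, adjusted p = 0.40).

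The annotation places other transcripts over parts of these genes, and whether counting took account of the strand was not given in the sources used here. An antisense RNA, Gm16559, overlaps Adh1 and matches 8.36% of its canonical transcript at 95% identity or more. Gm42879 lies over Aldh2 and matches 8.16% of it, with a mean of 10.9 reads beside 8113 for Aldh2. Without strand, reads from these parts cannot be told apart. Ggt7, a gene of the other strand with a mean of 11092 reads, overlaps Acss2, which had 5069. The transcript of Cat matched no other gene at that identity.

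The wider pathway was described from 9 lists of related genes, of which 81 of 86 genes were in the table. Of these, 22 (27.2%) passed the test, 17 lower and 5 higher in D2. Over all genes 18.3% passed, 9.83% with lower and 8.50% with higher levels in D2. Among genes whose mean count reached 100, 23.8% passed and 13.2% were lower. These shares also stand beside the counts of the single lists below. The median log2 fold change of the related genes was 0.0008. With libraries scaled by total counts 23 related genes passed, without Aldh1b1, Cyb5a and Cyb5r3, which were lower in the main fit. Their split by direction was not counted there. Over all genes that passed, 53.6% were lower in D2 with TMM and 45.0% with total counts. Among the alcohol dehydrogenases other than the members, Adhfe1, a mitochondrial iron-dependent enzyme of hydroxyacids, fell from 17.2 ± 1.11 to 13.6 ± 0.878 CPM (log2 fold change -0.34, adjusted p = 0.0013), and Adh4, Adh6a and Adh6b were not analysed here.

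The other aldehyde dehydrogenases form the longest list, with 8 of 17 genes past the threshold (47.1%), 6 lower and 2 higher in D2. Over all genes the share was 18.3%, and 23.8% among genes whose mean count reached 100. Aldh7a1, which acts in lysine breakdown, was 81.5, 86.9, 78.0, 75.7 and 80.1 CPM in B6 and 47.7, 47.7, 44.7, 43.3 and 45.9 CPM in D2. These ranges were far apart, at a log2 fold change of -0.81 (SE 0.043, adjusted p = 3.6e-08). Aldh3a1, which removes aldehydes of lipid peroxidation and lies 4995 bases from Aldh3a2, moved the other way, from 0.0830 ± 0.0285 CPM in B6 to 0.436 ± 0.169 CPM in D2 (log2 fold change 2.37, SE 0.32, adjusted p = 1.5e-04), while Aldh3a2 itself did not pass. Both levels of Aldh3a1 were low.

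Of the retinal dehydrogenases, Aldh1a3 fell from 0.652 ± 0.0443 to 0.248 ± 0.106 CPM (log2 fold change -1.39, adjusted p = 0.0019). Aldh1a2, named after its values were seen, went the other way, from 4.36 ± 1.43 CPM in B6 to 7.41 ± 2.97 CPM in D2. Its strains overlapped and it did not pass (log2 fold change 0.76, SE 0.26, adjusted p = 0.067). Aldh1a7, a rodent relative of Aldh1a1 that lies 44281 bases from it, was at a log2 fold change of -0.95 (SE 0.26, adjusted p = 0.022), and without B6 replicates 3 and 5 at -0.48 (adjusted p = 0.13). Its levels were low, 0.951 ± 0.375 CPM in B6 and 0.492 ± 0.115 CPM in D2. Aldh4a1 of proline breakdown (-0.39, adjusted p = 5.8e-04) and the folate enzyme Aldh1l1, a marker of astrocytes (-0.24, adjusted p = 0.0038), were lower. The summed level of the 6 astrocyte markers beside it was 977 to 1042 CPM in B6 and 946 to 1049 CPM in D2. Of these 6, 2 passed in opposite directions. Aqp4 was lower (-0.19, adjusted p = 0.032) and Gja1 higher (0.20, adjusted p = 0.0056). Aldh1b1, the mitochondrial relative of Aldh2, was lower at -0.19 (adjusted p = 0.035, and 0.067 without B6 replicates 3 and 5), and Aldh16a1 was higher at 0.27 (adjusted p = 0.012).

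Partners of microsomal oxidation passed the test with lower levels in 4 of 8 genes and with higher levels in none. Over all genes 9.83% were lower and 8.50% higher, and 13.2% of genes whose mean count reached 100 were lower. In Cyp2j6, named after its values were seen, every D2 mouse lay above every B6 mouse, but the log2 fold change of 0.11 did not pass (adjusted p = 0.072). The genes that passed were the cytochrome b5 genes Cyb5b (log2 fold change -0.19, adjusted p = 3.7e-04) and Cyb5a (-0.11, adjusted p = 0.032, and 0.053 without B6 replicates 3 and 5), the cytochrome b5 reductase Cyb5r3 (-0.15, adjusted p = 0.017) and the P450 gene Cyp2d22 (-0.21, adjusted p = 0.0034). With libraries scaled by total counts, Cyb5a and Cyb5r3 did not pass (adjusted p = 0.17 and 0.086). Among 10 peroxisomal genes 2 passed (20%, beside 18.3% over all genes), 1 in each direction. Paox, a polyamine oxidase that makes hydrogen peroxide, rose (log2 fold change 0.32, adjusted p = 0.0026). The 8 that did not pass include the genes of the import factors Pex5, Pex13 and Pex14.

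Of 5 amine oxidases, Maob, the monoamine oxidase B gene, was lower at a log2 fold change of -0.36 (adjusted p = 4.7e-04), as was Aoc2 (-0.39, adjusted p = 0.0025). In the list of 9 tested aldehyde and ketone reductases 1 gene passed, Cbr1, at 0.18 (adjusted p = 0.0068). Without B6 replicates 3 and 5 Cbr1 was at 0.12 (adjusted p = 0.020). Among 5 genes of acetate transport, the monocarboxylate transporter gene Slc16a7 was lower (-0.48, SE 0.12, adjusted p = 0.012, and -0.27 with an adjusted p of 0.036 without B6 replicates 3 and 5, which held its highest levels). Of 10 genes of acetyl-CoA metabolism only Acaca, the acetyl-CoA carboxylase that starts fatty acid synthesis, passed, falling from 86.3 ± 7.52 to 55.1 ± 2.84 CPM (log2 fold change -0.65, SE 0.059, adjusted p = 5.1e-06). Of 15 retinoid genes 2 passed (13.3%, beside 18.3% over all genes), 1 in each direction. The retinol dehydrogenase gene Dhrs9 was higher (0.95, adjusted p = 0.028, and 0.59 with an adjusted p of 0.084 without B6 replicates 3 and 5). Its levels were low, 0.269 ± 0.108 CPM in B6 and 0.523 ± 0.116 CPM in D2.

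The calls of 4 related genes were lost with single mice left out. These were Aldh1b1 without B6 replicate 1, 2 or 5 or D2 replicate 1 or 2 (adjusted p from 0.053 to 0.087), and Cyb5a without B6 replicate 2 or 4 or D2 replicate 1, 4 or 5 (0.051 to 0.075). The others were Aldh1a7 without B6 replicate 3 or 5 or D2 replicate 1 or 4 (0.051 to 0.056), and Dhrs9 without B6 replicate 3 or 5 or D2 replicate 1, 4 or 5 (0.051 to 0.072). Aldh1b1 did not pass with total counts either (adjusted p = 0.089).

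**Figure D5:**
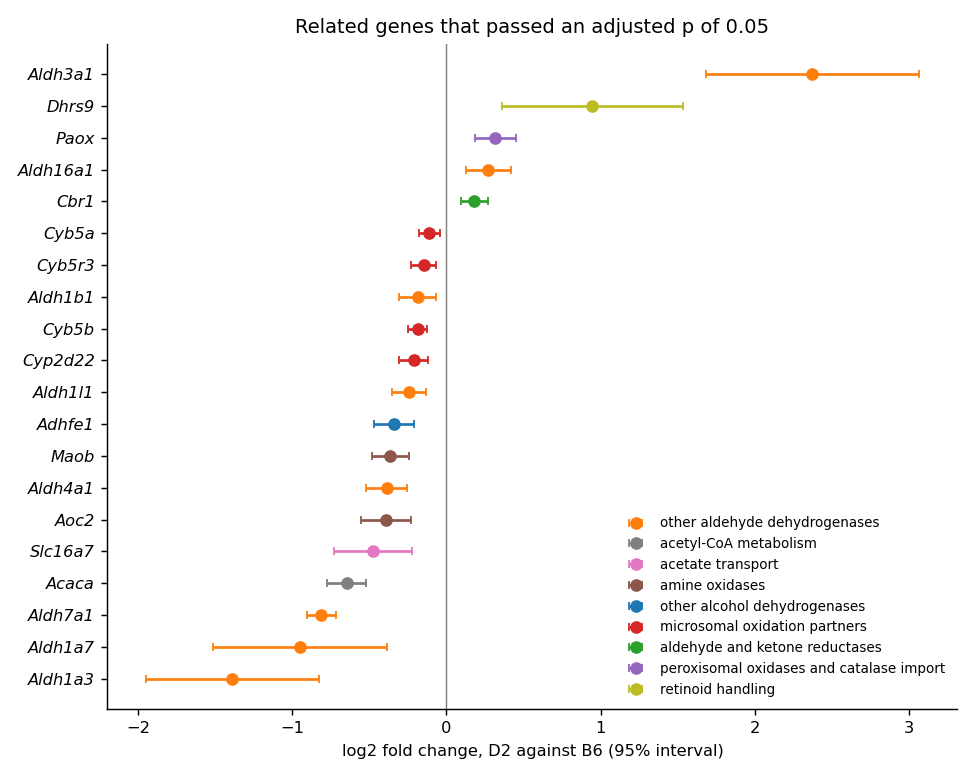
Log2 fold change, D2 against B6, of 20 related genes that passed an adjusted p of 0.05, with 95% intervals and coloured by list. Aldh3a1 at 2.37 lies farthest to the right and Aldh1a3 at -1.39 farthest to the left, and 15 of the 20 points lie left of 0.

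Some cell type markers also differed between the strains, and their part in the enzyme results was not tested. Of 62 markers in 12 lists, 19 passed (30.6%), 15 lower and 4 higher in D2. Over all genes 18.3% passed, 9.83% with lower and 8.50% with higher levels in D2. Among genes whose mean count reached 100, 23.8% passed and 13.2% were lower. The striatal markers were lower in 5 of 8 genes, among them Drd2 (log2 fold change -0.46, adjusted p = 8.6e-06), and the oligodendrocyte markers in 3 of 5, with summed levels of 3733 to 5305 CPM in B6 and 2859 to 4175 CPM in D2. B6 replicates 3 and 5 had the highest oligodendrocyte sums, 5305 and 5278 CPM. No cortical, endothelial or ependymal marker passed the edgeR test. For the summed levels of the 12 lists, exact permutation tests (two-sided) gave none that passed after adjustment over the 12 (adjusted p from 0.286 to 0.929). The smallest exact p that 5 and 5 mice allow is 0.0079, so a list that differed alone could not pass after this adjustment. These tests therefore do not show that cell makeup was alike in the strains. The smallest unadjusted values were those of striatal (exact p = 0.0238) and dopamine neuron markers (exact p = 0.0476).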

How the data were processed

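The authors sequenced stranded poly-A libraries of NAc tissue, 1 per male mouse (5 B6, 5 D2). The authors trimmed reads with fastp, aligned them with STAR 2.7.10b to the Ensembl GRCm39 genome, sorted them with SAMtools 1.6 and counted them with featureCounts, whose strand setting is not given in the sources used here. The authors deposited unnormalized counts for every gene whose median over the samples was above 0. Symbols and coordinates came from the GENCODE annotation of GRCm39.

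All 29883 genes were fitted with edgeR 4.0.16 in R 4.3.3 (TMM normalization, quasi-likelihood F test, strain as the factor, no covariate) with Benjamini-Hochberg adjustment. Each standard error was derived from the log2 fold change and its F statistic. The fit was tested on simulated data. Ratios and marker sums were compared by two-sided exact permutation over all assignments of the mice. DESeq2 1.42.0, other normalizations, filters on low counts, a replicate block and the removal of each mouse were tried as alternatives.

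The members, gene lists and alternatives were chosen with earlier results of these data known. The genes named were all members, the genes of the pathway lists that passed (2 of them are not reported here), the nearest tested genes on either side of each member that passed, and single markers as examples. Mice are the replicates and depth, 96977262 to 116776714 counted reads, limits only the genes of few reads. Comparisons of the authors and the tables of splicing were not used.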

Additional observations from a re-analysis of the deposited data

Results flagged for a closer look

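In each strain the lowest and the highest mouse were compared with the other 4 by Dixon's ratio of gap to range, with a critical value of 0.71 for 5 mice. Of 26 groups of values tested, 2 exceeded it, and chance exceeds it in about 1 of 20 groups. The Acss1 level of D2 replicate 5, 28.6 CPM, lay below the other D2 mice (ratio 0.743). The ratio of Aldh1a1 to Aldh2 in D2 replicate 4, 0.294, lay below the other D2 mice (ratio 0.728), and this mouse also had the lowest Aldh1a1 level of its strain, 20.9 CPM, and the lowest summed oligodendrocyte marker level, 2859 CPM.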

How the results depend on the processing

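Adh1 and Cat kept their direction and call under all alternatives run, with log2 fold changes of -1.98 to -1.55 and -0.22 to -0.17. Aldh2 kept its direction (-0.13 to -0.09) but lost its call with total counts, with the replicate block (adjusted p = 0.068), at a threshold of 0.01 and in 4 of 10 removals of a mouse. At a threshold of 0.01, 3415 genes passed. Leaving out each mouse gave 4636 to 5676 genes, 2 to 3 members lower, 0 members higher, 19 to 23 pathway genes, and log2 ratio differences of -1.94 to -1.62 for Adh1 to Adh5, 0.18 to 0.38 for Aldh1a1 to Aldh2 and -0.10 to 0.014 for Acss1 to Acss2, the last changing sign at 0.014 without B6 replicate 2. The following alternatives were added after the data were seen. Without B6 replicates 3 and 5, 1 member was higher, the ratio differences were 0.54 for Aldh1a1 to Aldh2 and -0.19 for Acss1 to Acss2, and Acss2 changed sign to 0.045. With the cortical marker level as a covariate, 38 pathway genes passed and 7836 genes in all. The causes were not tested. Of the genes that passed, 53.6% were lower in D2, and 45.0% with total counts. The labels number the mice of both strains, but same-numbered mice did not deviate together (correlations of 0.40, -0.44, 0.40, 0.02 and -0.32, own number the best partner in 2 of 5). With the number as a replicate block 4731 genes, 2 members and 21 pathway genes passed, and Aldh1b1 and Cyb5a did not (adjusted p = 0.079 and 0.068). Cyp2e1, with 1 to 20 reads, was removed by both filters on low counts and has no value there. Depth limits Cyp2e1 and Adh1.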
